A study of Homo sapiens with 36 samples.

Results

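hsa-miR-218-5p is 1 of 509 mature miRNA names listed in any of the 7 deposited tables, and it is listed in 7 of 7. It was chosen by its name, with its levels and its line-against-control fold changes in these same tables already known, so those values stand here as a description and carry no new test. The name stands for 1 mature sequence made from 2 hairpins. One lies in SLIT2 on chromosome 4 and the other in SLIT3 on chromosome 5, and chromosome 5 was gained in 2 of the 7 aneuploid lines.

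Small RNA was sequenced from 36 libraries in 12 groups of 3, which are 7 aneuploid lines and 5 control groups of 2 near-diploid human cell lines. RPE1 cells come from retinal pigment epithelium and divide without limit through added telomerase, and HCT116 cells come from a colorectal carcinoma. The authors deposited 1 table per aneuploid line, with comparison values over the 6 libraries of a line and its control and no values of single libraries. HCT116 5/4 (tetrasomy of chromosome 5) was compared with its own HCT116, both obtained from another laboratory. HCT116 18/3 c2 (trisomy 18), HCT116* 3/3 c11 (trisomy 3) and HCT116* 8/3 c7 (trisomy 8) shared 1 set of HCT116* control libraries. RPE1 5/3 12/3 (trisomies 5 and 12) was compared with RPE1, RPE1* 7/3 (trisomy 7) with the RPE1* libraries numbered 11 to 13, and RPE1* 21/3 (trisomy 21) with the RPE1* libraries numbered 1 to 3. An asterisk marks cells that carry the H2B-GFP reporter, which the shared HCT116* control had and the c2 clone of trisomy 18 did not. Names with a c are single-cell clones, and the lines other than HCT116 5/4 were made by microcell transfer of a chromosome. RPE1 5/3 12/3 gained chromosome 12 on its own, as RPE1* 7/3 did chromosomes 9 and 12, so the fold changes of the latter are not those of chromosome 7 alone.

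A miRNA is cut from a hairpin transcript, loaded into an Argonaute protein and guided to messenger RNAs that pair with its seed, the bases from position 2 to position 8. SLIT2 and SLIT3 encode secreted ligands of the ROBO receptors, which steer axons and migrating cells, and the miR-218 hairpins are made from the transcripts of these host genes. miR-218 is known to repress ROBO1, is abundant in motor neurons and is often low in carcinomas.

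The mature sequences are shown because they decide what a read can tell about its locus. The seed is in capitals, 5′ to 3′, as RefSeq gives it (GRCh38.p14 table).
hsa-miR-218-5p: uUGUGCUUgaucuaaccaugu
hsa-miR-218-1-3p: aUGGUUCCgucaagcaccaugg
hsa-miR-218-2-3p: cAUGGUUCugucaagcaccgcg
Among 2370 mature human miRNAs in that table, 1 has the seed UGUGCUU, hsa-miR-218-5p itself. No other miRNA of that table could therefore share its seed. The 3p strands differ between the hairpins, but neither is listed in any of the 7 tables, and miR-585, which also lies in SLIT3, is not listed either. Few of the listed names are 3p strands at all, so this absence does not show that the 3p strands were missing from the cells. The 21 bases of hsa-miR-218-5p matched the GRCh37 genome exactly at 2 places, at chr4:20529922-20529942 on the plus strand and at chr5:168195216-168195236 on the minus strand. A read of the mature strand thus cannot be assigned to 1 of the 2 loci.

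The 110-base hairpins from which it is cut are shown to compare the loci, with the mature strand, bases 25 to 45 of each, in capitals (RefSeq, identical to the GRCh37 genome).
miR-218-1: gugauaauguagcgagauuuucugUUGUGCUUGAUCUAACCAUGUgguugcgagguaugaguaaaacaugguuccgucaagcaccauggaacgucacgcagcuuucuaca
miR-218-2: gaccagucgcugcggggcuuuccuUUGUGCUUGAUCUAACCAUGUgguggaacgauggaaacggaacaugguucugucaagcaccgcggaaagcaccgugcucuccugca
Outside the mature strand the hairpins differed at many places, and 70 of their 110 bases (63.6%) were identical position by position. miR-218-1 lies at chr4:20529898-20530007 on the plus strand of GRCh37, in intron 15 of SLIT2 (20253528 to 20622184, plus strand, 37 exons in the canonical transcript). miR-218-2 lies at chr5:168195151-168195260 on the minus strand, in intron 14 of SLIT3 (168088745 to 168728143, minus strand, 36 exons). Both hairpins have the orientation of their host gene, lie 276 kb and 533 kb from its start, and overlap 0 exons of any annotated transcript.

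Among the listed miRNAs, hsa-miR-218-5p was moderately abundant in both cell types. Its mean normalised read count, the authors' mean over the 6 libraries of a table, was 1086 for HCT116 5/4. In the tables on the HCT116* control it was 1796 for trisomy 18, 1969 for trisomy 3 and 1956 for trisomy 8. In the RPE1 tables it was 1878 in RPE1 5/3 12/3, 3187 in RPE1* 7/3 and 946 in RPE1* 21/3. The highest and the lowest mean were thus both found in RPE1 tables. Ranked by mean it stood between 45th of 403 listed miRNAs (RPE1* 7/3) and 76th of 358 (HCT116 5/4).

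The tables were normalised separately, so levels across tables were set side by side as parts in 1000000 (ppm) of the summed mean. This sum ran from 5556870 to 11221232 normalised reads. It covers the listed miRNAs only, few of which are 3p strands, so these are not parts of all miRNA reads. On this scale the HCT116 tables lay between 195 and 249 ppm and the RPE1 tables between 117 and 284 ppm, so the ranges of the cell types overlapped. In each table hsa-miR-218-5p made up between 0.0117% and 0.0284% of the summed mean. The most abundant listed miRNA, hsa-miR-100-5p in RPE1* 7/3 and hsa-miR-21-5p in the other 6 tables, was 1484 to 3674 times as high. The cell types themselves were told apart by miRNAs typical of them. The 6 miRNAs of a colorectal epithelial list summed to 2006 to 3138 ppm in HCT116 tables and 192 to 251 ppm in RPE1 tables, which list 3 or 4 of the 6. hsa-miR-204-5p and hsa-miR-211-5p, which are typical of pigment epithelium, summed to 380.1 to 1452 ppm in RPE1 tables and 3.3 to 4.5 ppm in HCT116 tables, of which 1 lists hsa-miR-211-5p.

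The level of hsa-miR-218-5p was higher in RPE1 5/3 12/3 and lower in RPE1* 21/3 than in the matching control, and in the other 5 lines it did not pass the call rule. Both calls ended when the score was read against a t distribution with 3 degrees of freedom (adjusted p 0.254 and 0.478 in place of the listed DESeq2 values) and under a test against a log2 fold change of 0.6 (0.113 and 0.930). A miRNA counted as called where its mean reached 10, its listed adjusted p lay under 0.05 and its log2 fold change was 0.6 or more in size. The fold changes below are the log2 ratio of line over control with the standard error (SE) of the deposited fit, each from 3 libraries of a line against 3 of its control.

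In RPE1 5/3 12/3 the normalised level worked out from the mean and the fold change was 1131 in the control and 2626 in the line. The log2 fold change was 1.21 ± 0.26 (SE), a 2.32-fold higher level with a 95% interval of 1.63 to 3.31 (DESeq2 adjusted p 4.64e-05). In the same comparison 72 of 237 tested miRNAs were called (30.4%), 40 of them higher (16.9%) and 32 lower (13.5%). Of the tested miRNAs in that line, 91.9% had a lower log2 fold change than hsa-miR-218-5p.

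In RPE1* 21/3 the level was 1247 in the control and 644 in the line. The log2 fold change was -0.95 ± 0.19 (SE), or 0.516 of the control level with a 95% interval of 0.397 to 0.672 (DESeq2 adjusted p 2.56e-05). Calls were rarer in that table, with 20 of 231 tested miRNAs (8.66%), 9 of them higher (3.90%) and 11 lower (4.76%). Only 2.17% of the tested miRNAs had a lower log2 fold change there. Neither hairpin lies on chromosome 21.

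In RPE1* 7/3, the third RPE1 line, the level was 3150 in the control and 3224 in the line. Its log2 fold change was 0.03 ± 0.12 (SE), with a 95% interval of -0.20 to 0.27 (DESeq2 adjusted p 0.971). Here 32 of 247 tested miRNAs were called (13%). The 3 RPE1 lines thus held 1 higher value, 1 lower value and 1 whose interval included 0.

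None of the 4 HCT116 lines passed the call rule. In HCT116 5/4 the level was 1037 in the control and 1135 in the line, with a log2 fold change of 0.13 ± 0.16 (SE) and a 95% interval of -0.19 to 0.45 (DESeq2 adjusted p 0.668). There, 69 of 249 tested miRNAs were called (27.7%), 46 of them higher (18.5%) and 23 lower (9.24%), so the line with 4 copies of chromosome 5 had many calls and hsa-miR-218-5p was not among them.

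The 3 lines that share the HCT116* control all had a log2 fold change below 0. In HCT116 18/3 c2 it was -0.23 ± 0.12 (SE; 1938 in the control and 1654 in the line), in a table where 51 of 280 tested miRNAs were called (18.2%). In HCT116* 3/3 c11 it was -0.48 ± 0.18 (SE; 2293 and 1645), where 27 of 279 were called (9.68%). In HCT116* 8/3 c7 it was -0.22 ± 0.11 (SE; 2104 and 1808), where 44 of 293 were called (15.0%). The listed DESeq2 adjusted p was 0.173, 0.0411 and 0.205 in this order. HCT116* 3/3 c11 passed the limit on p and not the limit on the fold change. Since these 3 comparisons use the same 3 control libraries, their shared direction is not 3 separate observations.

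**Figure D1:**
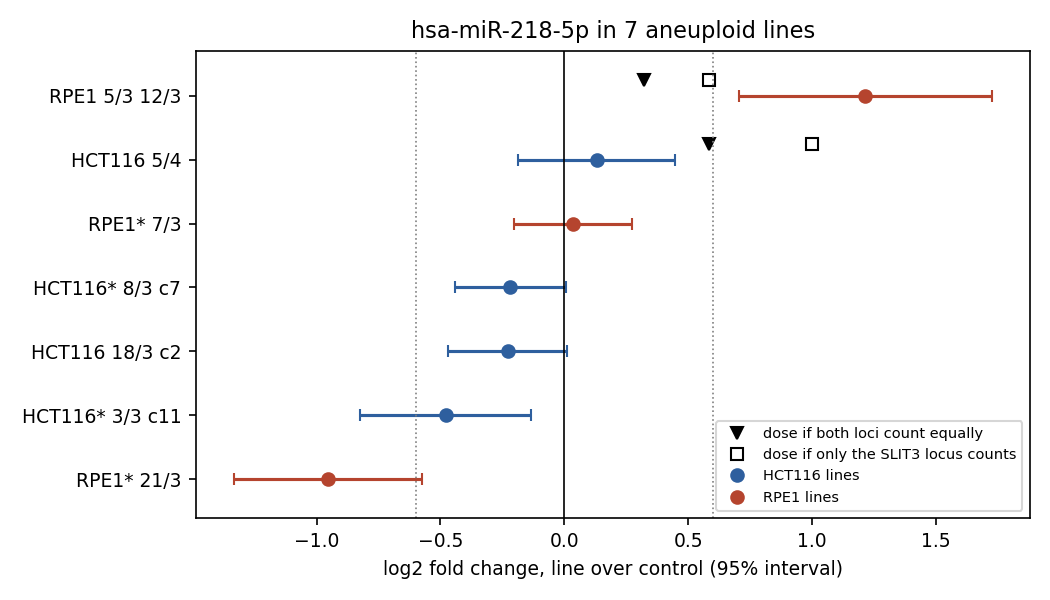
Log2 fold change of hsa-miR-218-5p, line over control, for the 7 aneuploid lines, with 95% intervals from the SE of the deposited fit, dotted lines at the limits of -0.6 and 0.6, and black marks for the log2 dose of loci in the lines with a gain of chromosome 5. RPE1 5/3 12/3 lies at 1.21 and RPE1* 21/3 at -0.95, while the intervals of HCT116 5/4, HCT116 18/3 c2, HCT116* 8/3 c7 and RPE1* 7/3 include 0.

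Ordered by log2 fold change, the lines run from RPE1 5/3 12/3 through HCT116 5/4, RPE1* 7/3, HCT116* 8/3 c7, HCT116 18/3 c2 and HCT116* 3/3 c11 to RPE1* 21/3. At the upper end of this order, HCT116 5/4 and RPE1 5/3 12/3 were 1.08 apart on the log2 scale, with a 95% interval of 0.48 to 1.69. For the other 5 neighbouring pairs the interval of the difference included 0, with errors added as if independent, although 2 of the 5 pairs share the HCT116* control. The widest of these gaps was that between HCT116* 3/3 c11 and RPE1* 21/3, at 0.48 (95% interval -0.04 to 0.99). The SE of hsa-miR-218-5p was close to the median SE of miRNAs of a similar mean in its table, for example 0.26 against 0.25 in RPE1 5/3 12/3 and 0.19 against 0.21 in RPE1* 21/3. It was 4.29 to 8.79 times the SE that counting error alone would give, so counting error was a small part of it.

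**Figure D2:**
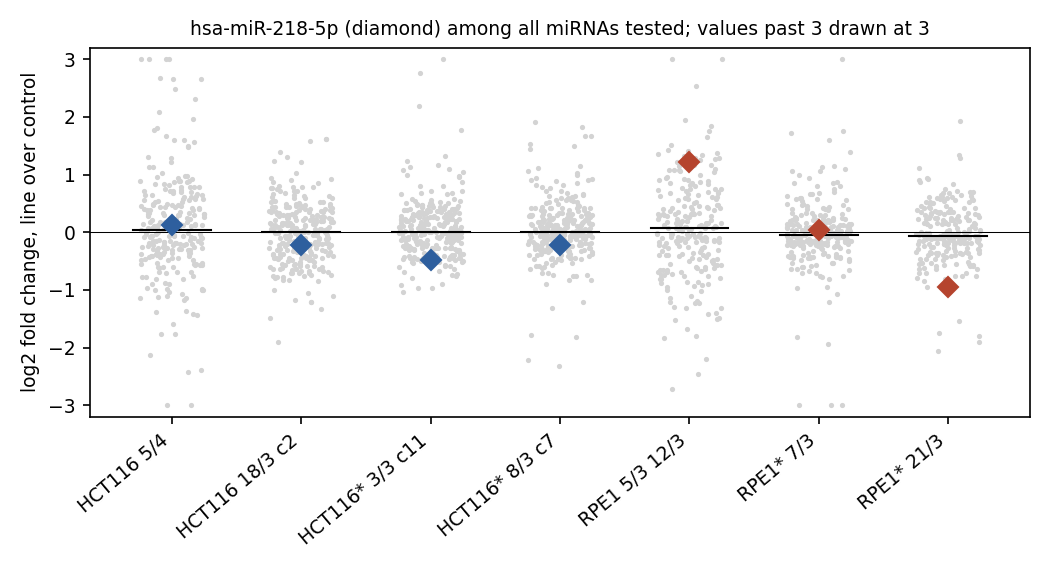
Log2 fold change of every tested miRNA in each of the 7 tables, with hsa-miR-218-5p as a diamond, the median as a black bar, and values beyond 3 in either direction drawn at that limit. It stands above 91.9% of the tested miRNAs in RPE1 5/3 12/3 and above 2.17% in RPE1* 21/3.

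Levels also differed between the control groups. As a part of the summed level, hsa-miR-218-5p was 157 ppm in RPE1, 149 ppm in the RPE1* libraries 1 to 3 and 278 ppm in the RPE1* libraries 11 to 13. The last of these was 1.87 times the second, although both are named RPE1*. A gap of this size was common between these control groups, since 95 of the other miRNAs compared (44%) had a larger absolute ratio. The level in RPE1 5/3 12/3, 238 ppm, was thus above its own control and below that of RPE1* 7/3. The level in RPE1* 21/3, 83.4 ppm, was the lowest of the 7 lines and of the control groups. In HCT116 cells the controls lay closer together, at 240.0 ppm in HCT116 and 268 to 270.1 in HCT116* as worked out from its 3 tables.

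The normalised level and the share of the summed level of listed miRNAs did not always move alike. In HCT116 5/4 the log2 fold change of 0.13 stood beside a log2 ratio of shares of -0.52. The summed level of all listed miRNAs was 1.57 times as high in that line as in its control. hsa-miR-21-5p, which held 45.9% of the summed mean, had a log2 fold change of 0.71 ± 0.15 (SE) there. In RPE1 5/3 12/3 the summed level was 1.53 times as high, and the log2 ratio of shares was 0.60 where the log2 fold change was 1.21. In RPE1* 21/3 the log2 ratio of shares was -0.83, close to the log2 fold change of -0.95. The sign turned in HCT116 5/4 and in no other line, and the shares carry no error because no single libraries are given. The median log2 fold change of all tested miRNAs lay between -0.06 and 0.07 in the 7 tables.

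**Figure D3:**
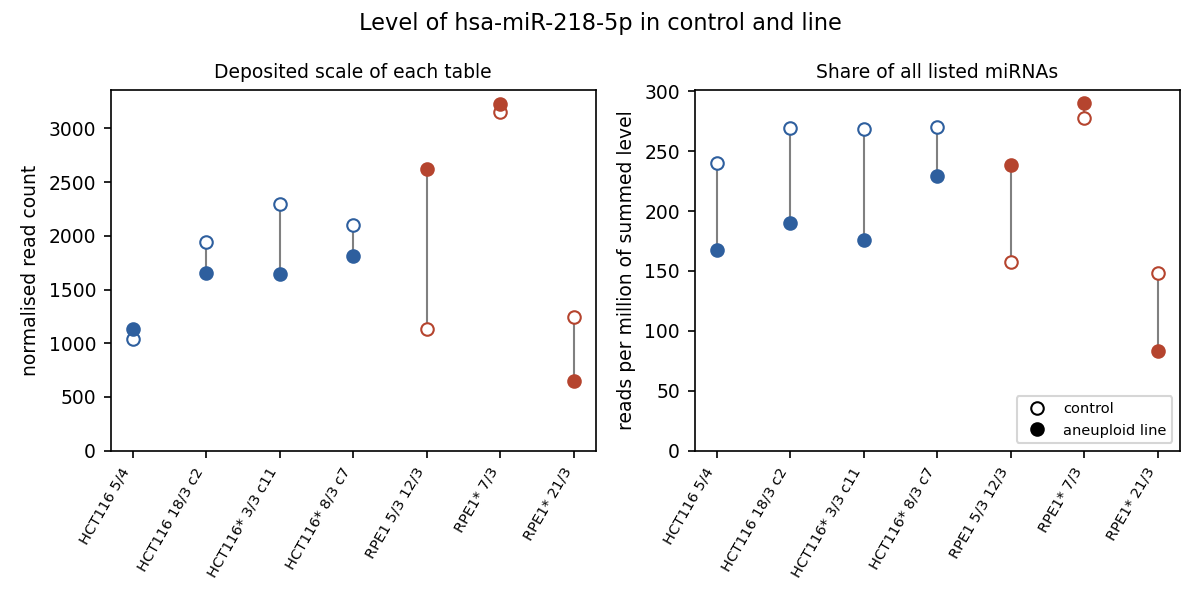
Level of hsa-miR-218-5p in control (open) and line (filled), in normalised reads (left) and as ppm of the summed level (right), worked out from the deposited mean and log2 fold change of each table, with no error bars because single libraries are not given. The level rises from 1131 to 2626 normalised reads in RPE1 5/3 12/3 and falls from 1247 to 644 in RPE1* 21/3.

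The gain of the SLIT3 locus went with a higher level in 1 of the 2 lines that carry it. If both loci were used equally, 4 copies of chromosome 5 beside 2 of chromosome 4 would give a log2 dose of 0.58, and use of the SLIT3 locus alone would give 1. The interval of HCT116 5/4, -0.19 to 0.45, lay below both values and included 0, the dose if the SLIT2 locus alone were used. For RPE1 5/3 12/3, with 3 copies, these doses are 0.32 and 0.58, and its interval of 0.70 to 1.73 lay above both. For both lines this holds for a normal interval only, and an interval on 3 degrees of freedom would be wider. For RPE1 5/3 12/3 it also holds for the deposited scale only, since its log2 ratio of shares, 0.60, lies at the dose of the SLIT3 locus alone. A test against 0.6 in RPE1 5/3 12/3, worked out here from the deposited fold change and SE, gave an adjusted p of 0.113. The line with more copies thus had the smaller fold change. Which locus the reads came from could not be measured, and the part of each locus was not tested.

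miRNAs encoded only on chromosome 5 had a median above that of all tested miRNAs in both lines. In HCT116 5/4, 8 of 11 such tested miRNAs had a log2 fold change above 0 beside 51.4% of all tested, and 6 were called higher beside 18.5%. Their median was 0.69 beside 0.04 over all tested miRNAs. Of these 11, 8 lay above hsa-miR-218-5p, among them hsa-miR-449c-5p at 2.66 ± 0.19 (SE) and hsa-miR-584-5p at 2.68 ± 0.19 (SE). In RPE1 5/3 12/3, 9 of 11 lay above 0 beside 52.3% of all tested, and 3 were called higher beside 16.9%. Their median was 0.68 beside 0.07 over all tested miRNAs, and it was 0.36 over the 3 with a mean of at least 100 and also 0.36 over all 15 listed. Only hsa-miR-146a-5p, at 3.47 ± 0.48 (SE), and hsa-miR-1271-5p, at 1.65 ± 0.33 (SE), lay above hsa-miR-218-5p in that line. It was thus among the highest chromosome 5 miRNAs in RPE1 5/3 12/3 and among the low ones in HCT116 5/4. hsa-miR-449c-5p and hsa-miR-584-5p were chosen for naming after their values were seen. In the 5 lines without a gain of chromosome 5, the median of the chromosome 5 miRNAs lay between -0.27 and -0.04.

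**Figure D4:**
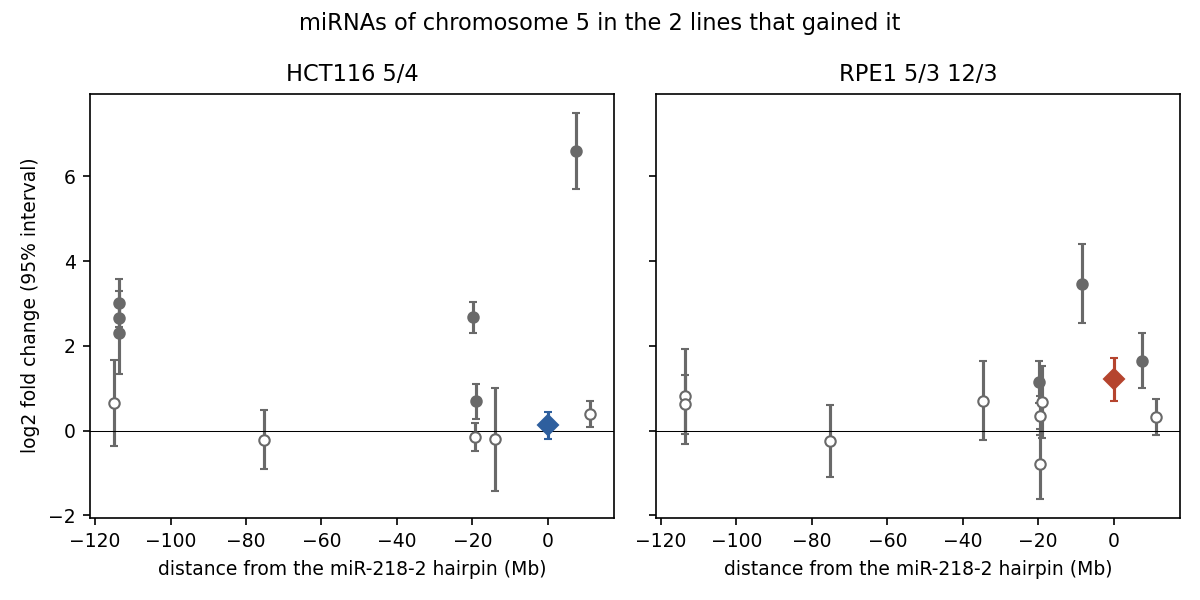
Log2 fold change of miRNAs encoded only on chromosome 5 against the distance of their hairpin from miR-218-2, with hsa-miR-218-5p (diamond) at a distance of 0, in the 2 lines with a gain of chromosome 5. Bars are 95% intervals and filled circles are called, and all 11 tested miRNAs are drawn in each line. hsa-miR-218-5p lies at 0.13 in HCT116 5/4, where hsa-miR-1271-5p reaches 6.60, and at 1.21 in RPE1 5/3 12/3.

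Chromosome 4, which carries the SLIT2 locus, was not gained. In HCT116 5/4, 2 of 8 tested miRNAs encoded only there lay above 0 beside 51.4% of all tested, with a median of -0.60. Of these 8, 1 was called higher and 2 lower, beside 18.5% and 9.24% over all tested miRNAs. The higher call, hsa-miR-302a-5p, passed the limit on the mean only through the line. In RPE1 5/3 12/3, 3 of 5 lay above 0 beside 52.3% of all tested, and 1 was called higher beside 16.9%, hsa-miR-4454 at 1.95 ± 0.38 (SE). The median there was 0.08 beside 0.07 over all tested miRNAs, and -0.13 at a mean of at least 100, where 2 miRNAs were left.

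Among the 485 listed miRNAs with a position on GRCh37, those nearest to the hairpins lay between 3.99 Mb and 8.28 Mb from them. Beside SLIT2 these are hsa-miR-573, 3.99 Mb away at chr4:24521815-24521913, and hsa-miR-5091, 6.90 Mb away at chr4:13629489-13629581. hsa-miR-573 was not called in any of the 6 tables that list it, with -1.07 ± 0.49 (SE) in HCT116 5/4 and 0.32 ± 0.52 (SE) in RPE1 5/3 12/3. hsa-miR-5091 was called lower in the 3 lines on the HCT116* control, at -1.49, -0.90 and -2.22 on the log2 scale for trisomies 18, 3 and 8. In either direction, 18.2%, 9.68% and 15.0% of all tested miRNAs were called there. The 3 comparisons use the same control libraries and are not separate observations. hsa-miR-5091 was not called in HCT116 5/4, at -0.30 ± 0.47 (SE), or in RPE1* 7/3, at 0.87 ± 0.36 (SE). Beside SLIT3 the nearest are hsa-miR-1271-5p, 7.60 Mb away at chr5:175794949-175795034, and hsa-miR-146a-5p, 8.28 Mb away at chr5:159912359-159912457. hsa-miR-1271-5p was called higher in both lines with a gain, at 6.60 ± 0.46 (SE) in HCT116 5/4 and 1.65 ± 0.33 (SE) in RPE1 5/3 12/3. The first value is a ratio over a worked-out control level under 10, at a mean of 154. In HCT116 18/3 c2 and HCT116* 8/3 c7 the mean of hsa-miR-1271-5p was 3.28 and 2.88. hsa-miR-146a-5p was called higher in RPE1 5/3 12/3, at 3.47 ± 0.48 (SE), also over a worked-out control level under 10. Its mean of 3.48 in HCT116 5/4 was under the limit of 10.

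hsa-miR-9-5p is the other listed miRNA with a locus on chromosome 5 and loci elsewhere, on chromosomes 1 and 15, and it is a miRNA known for its role in neural development. It was called higher in RPE1 5/3 12/3, at 1.84 ± 0.32 (SE), and lower in RPE1* 21/3, at -1.74 ± 0.31 (SE), as hsa-miR-218-5p was. In HCT116 5/4 the miRNAs parted, with hsa-miR-9-5p called lower at -1.0 ± 0.15 (SE) beside 0.13 for hsa-miR-218-5p. Its mean was 14798 normalised reads in HCT116 5/4 and 129.5 in RPE1 5/3 12/3, so it was far more abundant in the first of these tables. Both lines carry a gain of chromosome 5, and the directions were opposite.

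Of 223 miRNAs tested in RPE1* 21/3 as well as in RPE1 5/3 12/3, 3 were called lower in the former and higher in the latter. These were hsa-miR-9-5p, hsa-miR-4454 and hsa-miR-218-5p. They made up 8.11% of the 37 called higher in RPE1 5/3 12/3, while 4.48% of all 223 were called lower in RPE1* 21/3. They also made up 30.0% of the 10 called lower in RPE1* 21/3, while 16.6% of all 223 were called higher in RPE1 5/3 12/3. The overlap was not tested. hsa-miR-4454 had log2 fold changes of 1.95 ± 0.38 (SE) and -1.80 ± 0.33 (SE). A further 5 miRNAs were called higher in both lines, 1 was called higher in RPE1* 21/3 and lower in RPE1 5/3 12/3, and none of the 223 was called lower in both.

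Among 172 miRNAs with a mean of at least 10 in all 7 tables, the profile of hsa-miR-365a-5p was most like that of hsa-miR-218-5p, with a Pearson r of 0.95 over the 7 log2 fold changes. Its log2 fold change was 0.36 in HCT116 5/4, and it was -0.35, -0.42 and -0.17 in the lines with trisomies 18, 3 and 8. In the RPE1 lines it was 1.41 ± 0.49 (SE) in RPE1 5/3 12/3, 0.21 ± 0.27 (SE) in RPE1* 7/3 and -0.40 ± 0.39 (SE) in RPE1* 21/3. Its mean there was low, at 20.4, 55.4 and 17.8 in this order, and only the value in RPE1 5/3 12/3 was called. Over the 5 lines in which hsa-miR-218-5p was not called r was 0.96, which is no separate check because the miRNA was picked on these same values. hsa-let-7g-5p followed with an r of 0.90, but its log2 fold changes only spanned -0.20 to 0.18 and r was -0.33 without those 2 lines. hsa-miR-378c had an r of 0.87, which was 0.41 without them. The median r over the 172 miRNAs was 0.12, and 12 of them reached 0.8. The points share libraries, 3 of the 7 share a control, and r is given as a description.

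The most opposed profiles were those of hsa-miR-361-5p (r = -0.95), hsa-miR-130b-5p (r = -0.92) and hsa-miR-301a-5p (r = -0.89). In RPE1 5/3 12/3 their log2 fold changes were -0.57 ± 0.25, -1.40 ± 0.29 and -1.84 ± 0.31 (SE), where hsa-miR-218-5p was higher. In RPE1* 21/3 they were 0.14 ± 0.22, 0.35 ± 0.24 and -0.11 ± 0.26 (SE), and none of the 3 was called there.

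**Figure D5:**
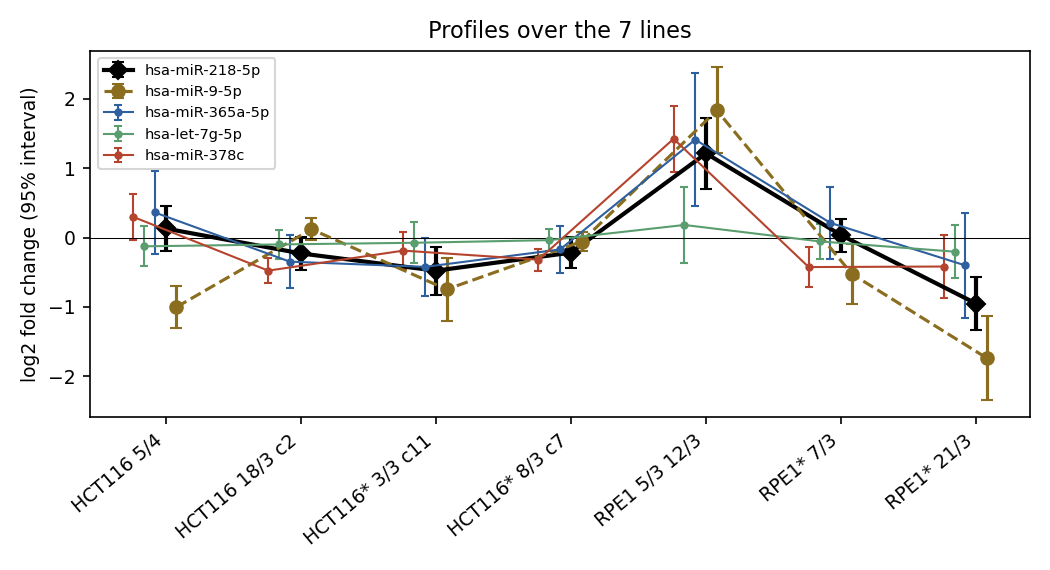
Log2 fold change over the 7 lines of hsa-miR-218-5p, of hsa-miR-9-5p and of the 3 miRNAs with the highest Pearson r with it, with 95% intervals and lines that only join the points of a miRNA. hsa-miR-365a-5p reaches 1.41 in RPE1 5/3 12/3, and hsa-let-7g-5p stays between -0.20 and 0.18.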

How the data were processed

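Cells, libraries and groups are those of the labels, with 3 biological replicates per group by the study's methods. The authors removed adapters with cutadapt, mapped reads to hg19 and counted miRBase miRNAs with mirdeep2, a line together with its control. DESeq2 (version not given in the sources used here) was then run by the authors, with the replicate number as a term for RPE1* 21/3, for RPE1 5/3 12/3 and also for HCT116 5/4. Whether fold changes were shrunken is not given there. For some rare miRNAs the SE was smaller than counting error alone would give, as after shrinkage. It was 0.27 at a mean of 1.10 for hsa-miR-1973 in RPE1* 7/3. For hsa-miR-1271-5p in HCT116* 8/3 c7 it was 0.29 at a mean of 2.88. Whether the fold changes of all lines were shrunken alike was not tested.

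The deposited mean is a signal, the average over 6 libraries of read counts that the authors had scaled by size factors. The other deposited columns are the log2 fold change with its standard error, a score (their ratio), a p-value and an adjusted p-value. These are the authors' own comparisons. They were used because the tables hold no single libraries, in place of the count test planned for single libraries. It was checked that score, p-value and Benjamini-Hochberg adjustment follow from the fold change and its error. Depth of single libraries is unknown.

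The miRNA and the lists were chosen with earlier results of these data known. Named were hsa-miR-218-5p, its listed relatives by name or seed, miRNAs with loci on chromosome 5 and elsewhere, the nearest listed loci, and the 3 miRNAs with the highest and the 3 with the lowest r. Intervals are 1.96 SE. The control level is 2 times the mean over 1 plus the fold change, which is approximate where a replicate term was fitted. Of 509 names, 505 (99.2%) matched a gene symbol of RefSeq or GENCODE 44, and 485 had a position on GRCh37, from GENCODE 44 or from an exact match of the RefSeq hairpin. Scripts ran in Python 3.11.15 with matplotlib 3.10.9, scipy 1.17.1, pandas 2.3.3 and numpy 2.4.6, and were tested on simulated data.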

Additional observations from a re-analysis of the deposited data

How the results depend on the processing

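For each of the 7 lines, 8 alternatives were computed. Of these 56 values, 51 kept their direction and their side of the call rule, 0 reversed, 4 lost the call and 1 gained it. Many of these outcomes were fixed in advance. The mean was 946 or more in each table, so neither limit on the mean could change a call. Dropping the fold change limit could not end a call. Bonferroni adjustment, the t distribution and the test against 0.6 could not add one. The 51 is thus no measure of robustness. With no limit on the fold change, HCT116* 3/3 c11 was called at -0.48 (DESeq2 adjusted p 0.0411). With the score read against a t distribution of 3 or 4 degrees of freedom, neither RPE1 5/3 12/3 (1.21, adjusted p 0.254) nor RPE1* 21/3 (-0.95, adjusted p 0.478) was called, and the same held for a test against a log2 fold change of 0.6 (adjusted p 0.113 and 0.930). Under the other 6 alternatives the adjusted p ran from 3.71e-05 to 0.00093 in RPE1 5/3 12/3 and from 2.17e-05 to 0.000231 in RPE1* 21/3. Those that only moved a limit on the mean or the fold change returned the listed value. At a mean of at least 100 the median of the chromosome 5 miRNAs in HCT116 5/4 was 2.66, over 7 miRNAs. With no limit on the mean it was 0.67, over 14. hsa-miR-1271-5p and hsa-miR-449a reached 100 only through the line, so the stricter limit itself favours high values. Shares in place of the deposited scale, chosen after seeing the data, gave -0.52 in HCT116 5/4, -0.51 in HCT116 18/3 c2 and 0.60 in RPE1 5/3 12/3. No paired analysis was possible because the tables hold no values of single libraries, and for the same reason leaving out a replicate, another normalisation and another count model were not run. The p-values measure only the spread between the 3 cultures of a line and those of its control. Within a line, the gained chromosome and other differences from its control cannot be told apart.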
